A study of Mus musculus with 12 samples.

Results

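CpG-poor tumor regions close to a gene start are 304 of the 1547 regions whose DNA methylation differed between liver tumors of the arsenite line and liver tumors of the control line. A region was taken where the authors' deposited tumor list gave it fewer than 10 measured CpG sites and placed it within 10 kb of the nearest transcription start site (TSS), with no use of the size or sign of its methylation difference. Of the 304 regions, 136 lay upstream of the start, 2 touched or spanned it, and 166 lay downstream of it. They were assigned to 296 genes, of which 8 had 2 such regions each.

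The study profiled liver DNA of male C3H/HeN mice of the F2 generation by reduced-representation bisulfite sequencing (RRBS). The arsenite line (AA) descends from F1 mice exposed to arsenite in the womb and the control line (CC) from unexposed controls. The tumor comparison set 3 tumor samples of the arsenite line (AATt, aged 74 weeks) against 3 tumor samples of the control line (CCTt), which belong to an earlier deposit and were not analysed here as samples. The other groups of this series, with 3 samples each and the same strain and age, were normal liver of the arsenite line (AAN), and tissue labelled non-tumor of the arsenite line (AATn) and of the control line (CCTn). Whether the 3 samples per group are from different mice is not stated in the labels. The deposited lists give 1 difference per region for a whole comparison and no value per sample, so the spread between replicates and the read depth behind each difference are unknown. No source used here defines the direction of the subtraction. A positive difference was read as higher methylation in tumors of the arsenite line, and if the subtraction ran the other way every direction given here turns over. The control tumors came from an earlier deposit, so an effect of the deposit and an effect of the line cannot be told apart. In bulk tumor DNA a different mix of cells and a different methylation level within a cell type cannot be told apart either.

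Cytosine methylation at CpG dinucleotides is the main form of DNA methylation in mammals. CpG-rich promoters (CpG islands) are mostly kept unmethylated, whereas CpG-poor sequence is mostly methylated and varies more between cell types. Methylation at a promoter usually goes with low transcription, while methylation within a transcribed gene body does not carry that meaning. RRBS cuts DNA with MspI at CCGG and reads the short fragments, so it samples CpG-rich DNA most densely and reaches CpG-poor DNA through isolated fragments. The regions described here had a median of 4 measured CpG sites, a median length of 133.5 bases (range 4 to 721) and a median of 3.64 sites per 100 bases, against a median of 6.88 sites per 100 bases in the 77 tumor regions within 10 kb that had 10 or more sites. In 69 of the 304 regions (22.7%) the density of listed sites was above the median of that denser set, so CpG-poor here means few measured sites and not always sparse ones. The 9-base region of Uqcc2, for example, held 3 sites.

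The sequences of the regions that lie on a promoter show the CpGs present there. The lists do not say which of these CpGs were measured or called. RefSeq promoter windows of build GRCm38.p6 (250 bases before to 50 after a start) overlapped 9 of the 304 regions, 3 of them wholly. Each is written 5′ to 3′ on the strand of the promoter window, in lower case with CpG dinucleotides in capitals. The first pair are the 2 regions that touch or span a start. The region of Npc1l1, which encodes the sterol transporter blocked by ezetimibe, is chr11:6230245-6230421 on the minus strand. Its difference was 20.99 percentage points over 8 listed sites, and its last capital C belongs to a CpG whose G lies just beyond the region. The region of Txk, which encodes a Tec-family tyrosine kinase of T cells, had a difference of -29.3 points over 7 sites, and the 100 of its 158 bases that lie in the window are chr5:72736553-72736652 on the minus strand.
Npc1l1: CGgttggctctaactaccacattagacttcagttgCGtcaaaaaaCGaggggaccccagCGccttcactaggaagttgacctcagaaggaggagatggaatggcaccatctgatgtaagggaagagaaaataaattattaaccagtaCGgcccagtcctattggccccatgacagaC
Txk: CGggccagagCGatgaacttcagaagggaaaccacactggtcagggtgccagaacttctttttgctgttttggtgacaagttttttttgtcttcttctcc

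Further regions show the range of site spacing close to a start.
The region of the antisense RNA gene G6bos, 12 bp upstream of its start, is chr17:35064390-35064425 on the plus strand and had a difference of -20.6 points. The region 122 bp downstream of the Wfdc1 start is chr8:119666487-119666569, shown on the minus strand as the window of the overlapping gene Gm32352, and had -20.1 points. Wfdc1 encodes a secreted protein with a WAP-type protease inhibitor fold. The region 120 bp upstream of E330020D12Rik had 21.0 points, and the 131 of its 144 bases in the window are chr1:153414353-153414483 on the minus strand.
G6bos: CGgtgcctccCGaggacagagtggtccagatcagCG
Wfdc1: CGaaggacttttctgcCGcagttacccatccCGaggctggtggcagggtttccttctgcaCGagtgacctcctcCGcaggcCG
E330020D12Rik: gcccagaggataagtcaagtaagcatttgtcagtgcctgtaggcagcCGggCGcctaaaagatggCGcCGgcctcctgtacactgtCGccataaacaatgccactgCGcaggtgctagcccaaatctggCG
Listed sites and CpGs in the sequence did not match 1 to 1. The Npc1l1 region held 5 complete CpGs and the C of another for 8 listed sites, G6bos 3 for 4 and Wfdc1 6 for 8, so listed sites can outnumber the CpGs of a region. The 4-base region of Trp53i11 listed 4 sites, which is possible only if the cytosines of both strands count as separate sites. Numbers of listed sites and DMCs, and densities drawn from them, can therefore exceed those of CpG dinucleotides. The E330020D12Rik piece held 7 CpGs and 2 CCGG sites but had only 3 listed sites, so part of its CpGs entered no value. CCGG was present in all 9 of the overlapped windows and in 52.8% of all 32851 windows. That letter match describes where MspI can cut and nothing else.

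Of the 304 regions, 197 (64.8%, exact Clopper-Pearson 95% interval 59.1% to 70.2%) had a positive difference, read as higher methylation in tumors of the arsenite line, and 107 a negative one. The share in the whole tumor list was 68.7% positive and 31.3% negative, so the CpG-poor regions near starts went mostly the way of the list as a whole. Upstream of the start 95 of 136 regions were positive (69.9%, 61.4% to 77.4%), and downstream 101 of 166 (60.8%, 53.0% to 68.3%). The upstream share was higher by 9.01 percentage points, with an odds ratio of 1.49 (95% interval 0.898 to 2.49), and this difference did not pass the test (two-sided Fisher's exact test p = 0.116, Benjamini-Hochberg adjusted p = 0.202 over the 5 comparisons of shares made here). Of the 2 spanning regions 1 was positive and 1 negative. A pair of regions cannot pass this test: against the upstream regions the two-sided Fisher's exact test gave p = 0.518 where 0.0911 was the smallest it allows, and against the downstream regions Fisher's exact test gave p = 1.0 where 0.153 was the smallest. All intervals and p-values on shares count regions as independent draws from the same 6 samples, and they do not measure the spread between mice. Restricted to the regions with at least 2 differentially methylated CpGs (DMCs), the upstream share was 72.4% of 76 and the downstream share 56% of 100, a gap of 16.4 points (Fisher's exact test, adjusted p = 0.0707). Restricted to 5 kb, the gap was 4.24 points (Fisher's exact test, adjusted p = 1.0).

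**Figure D1:**
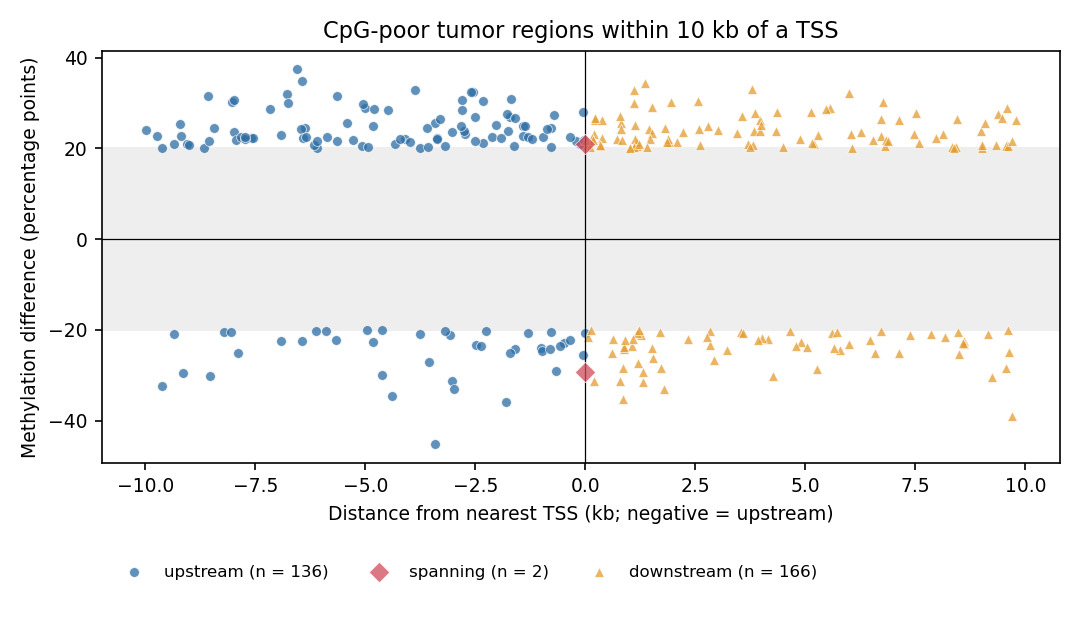
Methylation difference (percentage points, vertical axis) of each of the 304 CpG-poor regions against its signed distance from the nearest start (kb, horizontal axis), with upstream, spanning and downstream regions in separate colors. No point lies between -20 and 20 because the authors' list holds no smaller difference, and both signs occur across the whole range of distances.

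By distance, the positive share was 42 of 54 regions (77.8%) at 5 to 10 kb upstream, 31 of 46 (67.4%) at 2 to 5 kb, 12 of 17 (70.6%) at 1 to 2 kb, and 10 of 19 (52.6%) in the last 1 kb before the start. Downstream it stayed between 59.5% and 61.5% in each of the 4 distance bins. The within-1-kb interval on the upstream side (28.9% to 75.6%) covers the shares of all other bins but the farthest upstream (77.8%). Within 1 kb on either side, the 2 spanning regions included, 28 of 49 regions were positive (57.1%, 42.2% to 71.2%), against 169 of 255 (66.3%, 60.1% to 72.1%) at 1 to 10 kb. These intervals overlap.

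**Figure D2:**
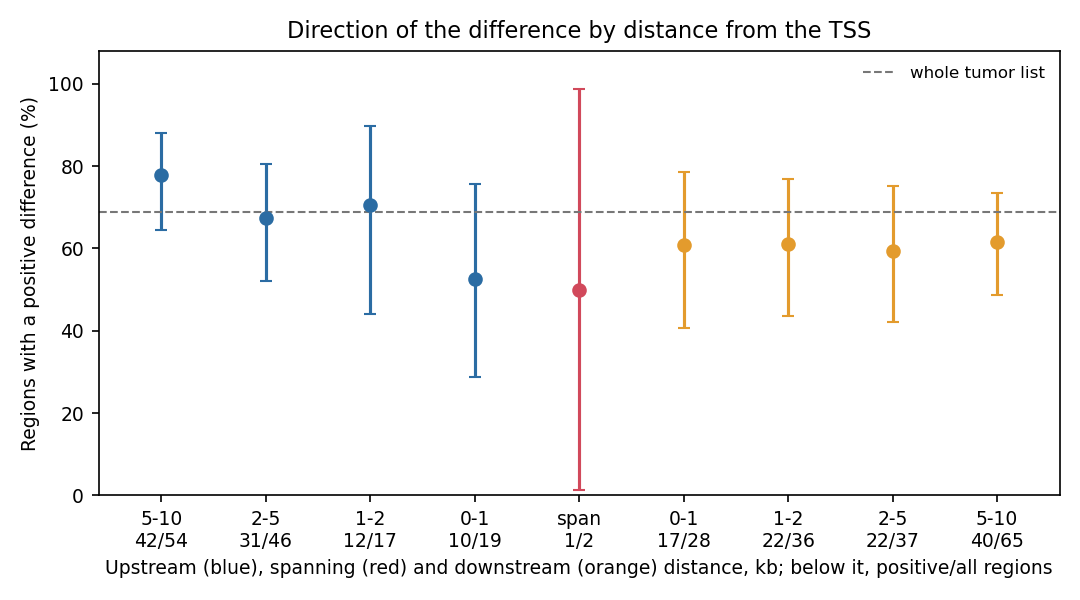
Share of regions with a positive difference (%, vertical axis) in bins of distance from the start (kb, horizontal axis), upstream in blue, spanning in red and downstream in orange. Points are shares, bars exact 95% Clopper-Pearson intervals, and the dashed line the whole tumor list (68.7%). The downstream bins lie at 59.5% to 61.5% and the upstream bins between 52.6% and 77.8%.

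Upstream and downstream regions also differed in where they fell, which follows in large part from the definition. The gene table gives gene spans and not exons. It placed 142 of the 166 downstream regions inside the span of their own gene, 9 inside another gene and 15 in no gene. Upstream, 74 of the 136 regions lay in no gene, 44 in another gene and 18 within the span of their own gene, where RefSeq begins the gene farther out than the start used in the list. Regions in their own gene were positive in 97 of 162 cases (59.9%, 51.9% to 67.5%), those in another gene in 37 of 53 (69.8%, 55.7% to 81.7%), and those in no gene in 63 of 89 (70.8%, 60.2% to 79.9%). Upstream regions in no gene (53 of 74 positive) and in another gene (32 of 44) had much the same share.

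The typical size of the differences was close in both positions. The median absolute difference was 23.1 points upstream and 23.0 points downstream, and 23.0 in the whole tumor list. Upstream, 45 of 136 regions (33.1%) and downstream 51 of 166 (30.7%) differed by at least 25 points, against 29% of the whole list. Differences of at least 30 points were listed for 20 upstream regions (14.7%), 13 positive and 7 negative, and for 15 downstream regions (9.04%), 7 positive and 8 negative, against 8.21% of the whole list. The gap in large differences between the positions was not tested.

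The 2 spanning regions differ in how much of the start they cover. The Npc1l1 region (chromosome 11, 20.99 points, 2 DMCs of 8 sites) has 177 bases upstream and 0 bases downstream of the listed start, so it ends at the start without crossing it. The Txk region (chromosome 5, -29.3 points, 4 DMCs of 7 sites) has 51 bases upstream and 107 downstream, and is the region among the 304 that crosses a start. Its 2 CpGs visible in the window both lie at the upstream end.

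Upstream of the start the largest positive difference was at Uqcc2, which encodes an assembly factor of mitochondrial complex III. The authors' deposited table gives this 9-base region 37.4 points, with all 3 of its sites called as DMCs, 6559 bp before the start. Scn10a, a voltage-gated sodium channel gene of sensory neurons, followed with 34.9 points 6439 bp upstream. Ap1g2, a subunit of the AP-1 vesicle adaptor, had 32.9 points in a region that lies inside Jph4. Tex11, a meiosis gene on the X chromosome, and Cxcr1, a chemokine receptor gene of neutrophils, both had 32.4 points at about the same distance, 2596 and 2547 bp. The other upstream regions among the 10 largest positive were those of the hedgehog co-receptor gene Boc (32.1 points), the lipocalin gene Lcn11 (31.6), the hematopoietic receptor kinase gene Flt3 (31.5, with 4 DMCs of 5 sites, 8562 bp away), Tmbim7 (30.9) and 4931429L15Rik (30.7). These 10 genes belong to different functional families, and 5 of the regions lie in no annotated gene.

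Upstream regions with negative differences reached further from 0. Pik3c3, which encodes the class III phosphatidylinositol 3-kinase that starts autophagy, had -45.2 points, the lowest value of the whole tumor list, and all 7 of its sites were DMCs. This 63-base region on chromosome 18 lies 3409 bp before the listed start but within the RefSeq span of Pik3c3. Slc15a2, a peptide transporter gene, had -35.9 points 1797 bp upstream. Nt5c2, which encodes a cytosolic nucleotidase, had -34.6 points in a region inside the neurofilament gene Ina. The Wnt ligand gene Wnt3 had -33.0 points with 5 DMCs of 7 sites, in a region inside its neighbour Wnt9b, so the nearest start and the gene that holds the region are different. Ict1, a mitochondrial ribosomal release factor gene, had -32.4 points with 6 DMCs of 8 sites, inside Cdr2l. The remaining ones of the 10 most negative included Gm1943 (-30.1), Prdm13, a neural transcription factor gene (-29.9), the retinoblastoma family gene Rbl2 (-29.5) and D030045P18Rik (-29.0).

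Downstream of the start the largest positive difference was at Ampd3, an AMP deaminase gene, with 34.4 points 1365 bp after the start. Hist1h2bc, a histone H2B gene, had 33.0 points at 3784 bp, while Tnfrsf11a, which encodes RANK, the receptor that drives osteoclast formation, had 32.9 points with 3 DMCs of 4 sites at 1108 bp. Ncf4, a subunit gene of the phagocyte NADPH oxidase, had 32.2 points with all 3 sites of its 21-base region called. The next were Tmcc2 (30.5), the cation channel gene Trpc5 (30.3) and Tceal3 (30.3), Prdm10 (29.9, 4 DMCs of 7 sites), the tyrosine kinase gene Matk (29.2) and the olfactory receptor gene Olfr487 (28.9). None of these 10 lay within 1 kb of its start.

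Downstream negative differences were led by Chd5, a chromatin remodeler gene, with -39.1 points and 3 DMCs of 4 sites 9701 bp into the gene. Htr2a, the gene of a serotonin receptor, followed with -35.1 points and all 4 sites called, 860 bp after its start. Pax8, a transcription factor gene of thyroid and kidney, had -33.1 points with 7 DMCs of 8 sites 1800 bp after the start. Epb4.1l3, a membrane skeleton gene, had -31.6 points. Xlr4b had -31.4 points 203 bp after its start. It belongs to a family of near-identical X-linked genes among which reads can be misplaced, so its value is uncertain, as is that of its relative Xlr5c (-25.1 points), named here after its value was seen. The others were Gpx8, a peroxidase gene of the endoplasmic reticulum (-31.2), the Wnt receptor gene Ror2 (-30.4), the platelet receptor gene Pear1 (-30.2), the vomeronasal receptor gene Vmn2r56 (-29.2) and 4930440C22Rik (-28.6).

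Within 1 kb of a start there were 49 regions of 49 genes, 19 upstream, 2 spanning and 28 downstream. Among the nearest to a start, apart from the spanning regions, were G6bos (-20.6 points, 12 bp upstream), the microRNA gene Mir3104 (21.9 points, 33 bp upstream), the mitochondrial import gene Timm8a2 (20.7 points, 34 bp downstream) and Gm5134 (28.0 points, 51 bp upstream). Arhgap25, a GTPase-activating gene of blood cells, had -21.6 points 53 bp downstream. Plvap, which encodes the diaphragm protein of endothelial fenestrae, had -25.5 points with 4 DMCs of 7 sites 58 bp upstream. Both signs thus occurred within 100 bp of a start.

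Several of the regions within 1 kb belong to genes of immune signalling. The interleukin gene Il6 had 26.8 points, 2 DMCs of 3 sites, 210 bp after its start. Irf4, a transcription factor gene of lymphocytes, had 24.6 points with 3 DMCs of 6 sites over 592 bases that end 789 bp before the start. Cd74, the invariant chain gene of antigen presentation, had -23.7 points at 886 bp. Potassium channel genes within 1 kb, Kcnd1 (-24.3, 795 bp upstream) and Kcnj5 (-22.3, 893 bp downstream), were negative. So were the actin-severing gene Gsn (-24.5), the channel gene Panx2 (-28.4, 3 DMCs of 7 sites), the ciliary transport gene Ift27 (-24.995), the sphingomyelinase gene Smpd5 (-22.1) and Mapk10, a stress kinase gene (-22.3). Positive ones included the lipid transporter gene Abca12 (26.2), the flippase gene Atp8a2 (23.1), the fibroblast growth factor family gene Fgf14 (20.2), the polyamine oxidase gene Paox (21.9), Rgs11, a regulator of G protein signalling (27.1), and Gprasp1, a receptor-sorting gene (27.4).

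MicroRNA genes were nearest to 12 regions, of which 9 were positive (75%), against 40 of the 60 tumor regions nearest to such genes (66.7%) and 68.7% of the whole list. The pair within 1 kb are shown by their mature RNAs from RefSeq, in lower case with the seed (bases 2 to 8) in capitals. The Mir3104 region lies 33 bp upstream of the microRNA start and inside Brsk2, and the Mir3065 region (-23.0 points, 1 DMC of 3 sites) lies 479 bp upstream and inside Aatk.
mmu-miR-3104-5p: uAGGGGGCaggagccggagcccucu
mmu-miR-3104-3p: aCGCUCUGcuuugcucccccaga
mmu-miR-3065-5p: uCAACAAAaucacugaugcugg
The 3 mature RNAs have 3 different seeds. A region inside a host gene is as much part of that gene as of the microRNA, and the list names it for the microRNA because that start is nearest.

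Most of the differences rest on few called sites. Of the 304 regions, 126 (41.4%) held exactly 1 DMC, against 35.6% of the whole tumor list, and 6 (1.97%) had all of their sites called, against 1.87% of the whole list. These 6 were Pik3c3, Htr2a, Ncf4 and Uqcc2, given above, and the regions upstream of the AP-1 family transcription factor gene Batf (27.0 points, 1714 bp) and of Fam124b (30.3 points, 2320 bp). Regions with 1 DMC had a median absolute difference of 21.9 points (n = 126), those with 2 had 23.8 (n = 102), those with 3 had 26.6 (n = 51) and those with 4 or more had 27.1 (n = 25). The positive share was 85 of 126 with 1 DMC (67.5%), 112 of 178 with 2 or more (62.9%) and 41 of 76 with 3 or more (53.9%, 42.1% to 65.5%).

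By the number of measured sites, 85 of 112 regions with 3 sites were positive (75.9%, 66.9% to 83.5%), 52 of 83 with 4 (62.7%), 16 of 31 with 5 (51.6%), 19 of 26 with 6 (73.1%), 10 of 26 with 7 (38.5%, 20.2% to 59.4%), 13 of 22 with 8 (59.1%) and 2 of 4 with 9. The order was uneven. The interval at 3 sites lies above that at 7 sites, and the others overlap both.

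**Figure D3:**
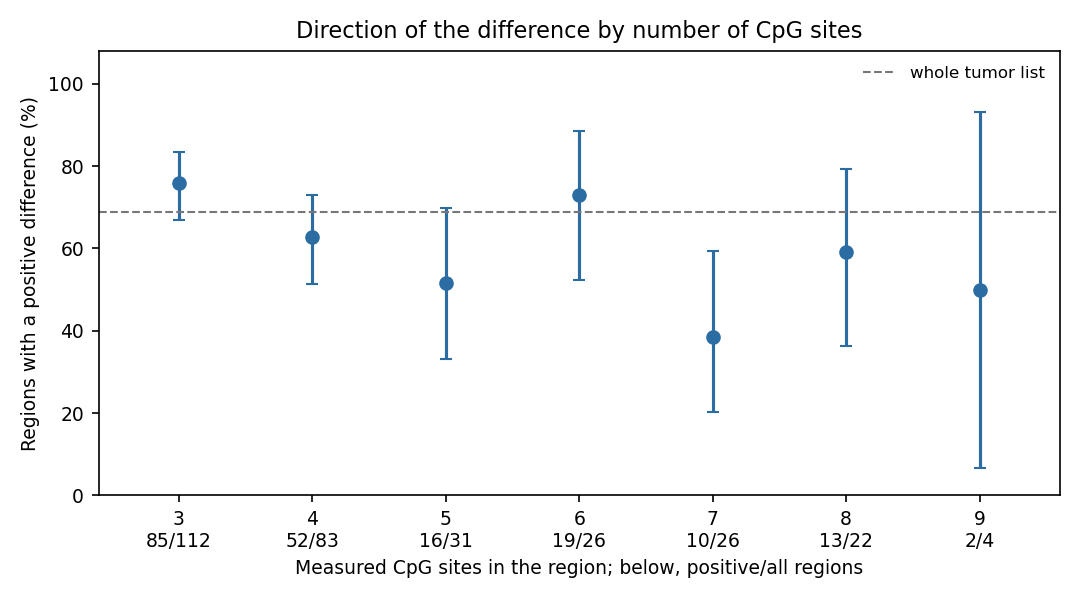
Share of CpG-poor regions with a positive difference (%, vertical axis) by the number of measured CpG sites (horizontal axis). Points are shares, bars exact 95% Clopper-Pearson intervals, and the dashed line the whole tumor list (68.7%). The share is 75.9% at 3 sites and 38.5% at 7 sites.

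The CpG-poor regions differed in direction from the CpG-dense ones within the same 10 kb limit. Of the 304 CpG-poor regions 64.8% were positive, against 30 of the 77 regions (38.96%, 28.05% to 50.8%) within 10 kb that had 10 or more sites. This gap of 25.8 percentage points had an odds ratio of 2.88 (95% interval 1.67 to 5.01) and passed the test (two-sided Fisher's exact test p = 4.97e-05, adjusted p = 0.000248). Limited to differences of at least 25 points it no longer passed, at 64.9% of 97 CpG-poor against 45.8% of 24 CpG-dense regions (Fisher's exact test, adjusted p = 0.519). Upstream, 95 of 136 CpG-poor regions were positive, against 7 of 27 CpG-dense ones. Downstream the counts were 101 of 166 CpG-poor and 18 of 41 CpG-dense regions, and at the start 1 of 2 CpG-poor and 5 of 9 CpG-dense regions. The CpG-poor regions were shorter, with a median of 133.5 bases against 311 in the CpG-dense ones, had a median of 2 DMCs against 7, and they lay farther from starts, at a median of 3750.5 bp against 2437 bp. The number of measured sites thus does not vary alone between these sets, and the part of length, DMC number and distance was not tested.

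Farther from starts, 494 of 706 CpG-poor regions at 10 to 100 kb were positive (69.97%, 66.4% to 73.3%). The share within 10 kb differed from that by -5.17 percentage points, which did not pass the test (odds ratio 0.790, 95% interval 0.589 to 1.06, two-sided Fisher's exact test p = 0.121, adjusted p = 0.202). Beyond 100 kb, 273 of 334 CpG-poor regions were positive (81.7%). Median absolute difference (23.0 points within 10 kb and 23.0 at 10 to 100 kb) and median number of sites (4 in both) were the same to 3 digits.

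**Figure D4:**
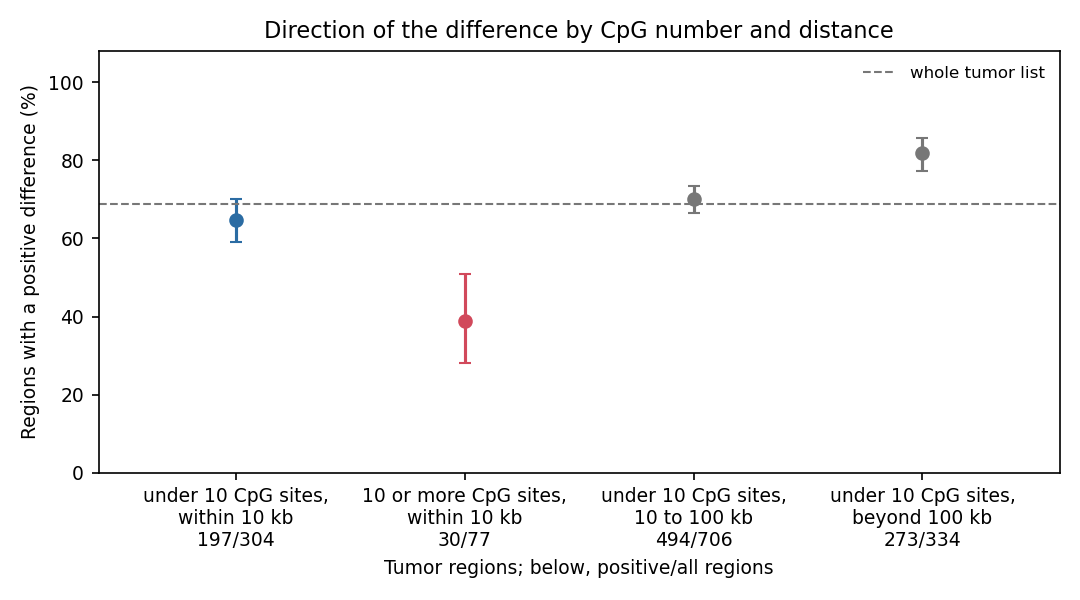
Share of tumor regions with a positive difference (%, vertical axis) in the CpG-poor regions within 10 kb, the CpG-dense regions within 10 kb, and the CpG-poor regions at 10 to 100 kb and beyond 100 kb (horizontal axis). Points are shares, bars exact 95% Clopper-Pearson intervals, and the dashed line the whole tumor list (68.7%). The CpG-dense regions within 10 kb (38.96%) lie below the CpG-poor ones (64.8%).

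Grouped by gene family from symbols, the regions held members of all 12 lists. The counts below describe the lists and were not tested. A symbol pattern admits a few genes by spelling alone, such as Adrbk2, a receptor kinase gene counted with the receptors. It also leaves out genes of the same kind whose symbols do not match. Of 13 regions at ion channel and neurotransmitter receptor genes 7 were positive and 6 negative, against 75.5% positive over the same list in all tumor regions. The potassium channel genes Kcnd1, Kcnma1 (-24.0), Kcnj5 and Kcng1 (-20.1) were negative and Kcnj2 (20.6) was positive. Both TRP channel genes were positive, Trpc5 with 30.3 points and Trpc7 with 24.98, as were the water channel gene Aqp6 (25.2) and the sodium channel gene Scn10a.

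Of 9 regions at solute carrier, ABC and ion pump genes 8 were positive, against 70.5% in all tumor regions of that list. They included the serotonin transporter gene Slc6a4, with 30.6 points upstream and 23.2 points downstream, the urea transporter gene Slc14a1 (28.7, inside Slc14a2), and the lipid transporter genes Abca12 and Abca13 (21.98). Slc15a2 was the exception, with -35.9 points.

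Developmental transcription factor genes had 14 regions, 10 positive and 4 negative, against 72.4% positive in all tumor regions of that list. Positive ones were Prdm10, the LIM homeobox genes Lhx4 (29.0) and Lhx9 (20.7), the forkhead gene Foxe1 (26.6), Ebf2 (24.9), Prdm12 (23.9), Nkx6-2 (21.9), Pitx1 (20.7), the hedgehog effector gene Gli3 (20.6) and Irx6 (20.3). The negative ones were both Pax8 regions, Prdm13 and Foxs1 (-24.8). Zinc finger genes had 3 regions, with 20.3 points at Zfp42, the pluripotency marker Rex1, 22.04 at Zfp882 and -20.6 at Zfp263, against 53.3% positive in the 15 tumor regions of that list.

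The leukocyte list had 10 regions, 7 positive and 3 negative, against 21 positive of the 30 tumor regions of that list. Genes of T cells stood on both sides. Cd8a (22.1, 4 DMCs of 9 sites), a co-receptor gene, and Cd2 (23.8), an adhesion receptor gene, were positive, and Zap70, the kinase gene of the T cell receptor, was negative (-21.9). Cd200r4 had 21.2 points, and Cxcr1, Tnfrsf11a, Il6 and Irf4 were positive as given above. Cd74 and Clec2l (-21.5) were negative. Leukocyte genes that the symbol list leaves out also went both ways. Among them Txk (-29.3), Nfatc2 (-27.2) and Mpo (-20.5) were negative, and Ncf4 (32.2) and Ncf1 (23.8) were positive. How much of the tumor DNA came from leukocytes was not measured, and its part in these values was not tested.

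The list of kinase, phosphatase and small GTPase signalling genes had 17 regions, 13 positive and 4 negative. In all tumor regions of that list 67.5% were positive. Flt3 and Rassf10, a Ras-association gene (29.9), were the highest, followed by Rgs11. The ephrin receptor genes Ephb1 (22.3) and Ephb3 (21.2), the phosphatase genes Ptprr (22.2) and Ptprb (20.8), and Fgf15, the ileal hormone gene that restrains bile acid synthesis (21.3), were also positive. Pik3c3, Mapk10, Arhgap25 and Arhgef19 (-20.4) were negative. The Wnt list had 2 regions, Wnt3 and Ror2, and both were negative, against 37.5% positive in the 16 tumor regions of that list. Kremen2, a Wnt regulator gene outside the symbol list, was positive, with 25.1 points 1120 bp downstream.

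The list named for hepatocyte metabolism had 6 regions, 2 positive and 4 negative, against 63.6% positive in the 11 tumor regions of that list. Its genes are not all particular to hepatocytes, so these counts do not describe hepatocyte genes as a class. The negative ones were Nt5c2, Srebf1, the master regulator gene of fatty acid synthesis (-20.9, 9344 bp upstream and inside Tom1l2), and the cytochrome P450 genes Cyp2j13 (-20.5) and Cyp11a1 (-20.2). The positive ones were Ampd3 and Hsd11b2, which encodes the enzyme that inactivates glucocorticoids (20.9). Except for Ampd3 all of these regions lie upstream of their start. Adhesion and matrix genes had 8 regions, 4 of each sign, against 67.5% positive in the 40 tumor regions of that list, among them the collagen gene Col2a1 (-25.1), Fbln1 (-21.98), Itgbl1 (-20.3), Adam23 (24.6) and Adam33 (22.4). Histone and chromatin genes had 3, Hist1h2bc, Chd5 and Ezh1, the Polycomb methyltransferase gene (-20.5), of which 1 was positive, against 58.3% of the 12 tumor regions of that list. Ubiquitin and trafficking genes had 4, all positive, namely Ap1g2, Rnf125 (26.6), Ap1s2 (21.0) and Klhl29 (20.004), against 73.1% positive in the 26 tumor regions of that list. Noncoding and uncharacterised transcripts were nearest to 50 regions, 34 positive and 16 negative, against 69.3% positive in all tumor regions of that list.

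**Figure D5:**
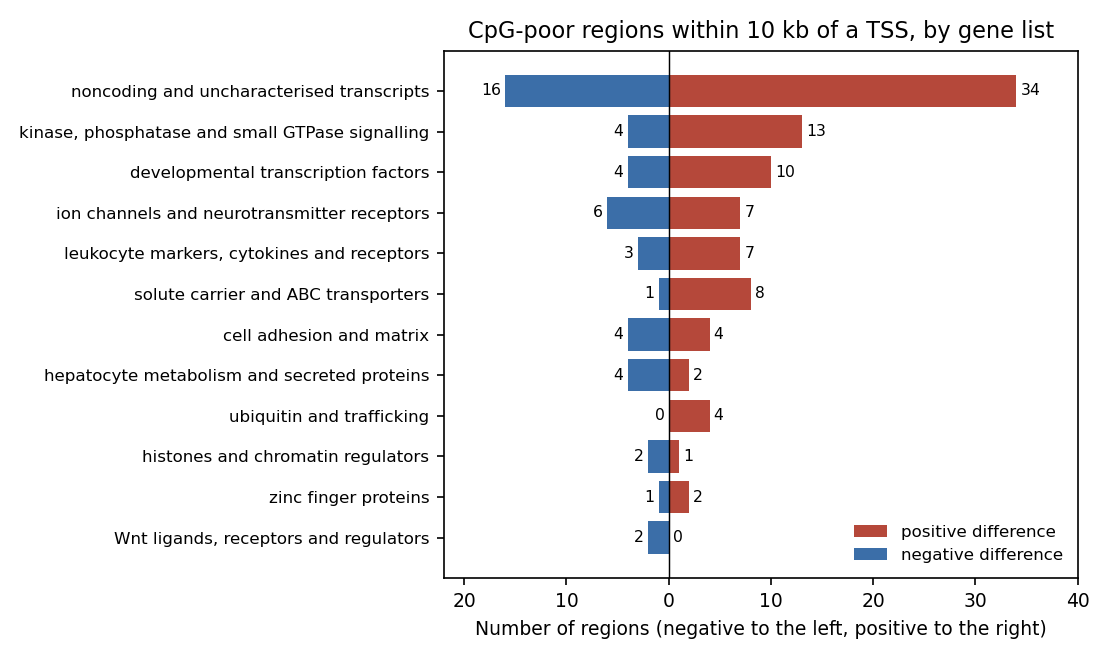
Number of CpG-poor regions within 10 kb (horizontal axis) with a positive difference (red, to the right) and a negative difference (blue, to the left) in each of the 12 gene lists (vertical axis). Both signs occur in every list except the Wnt list (2 negative) and the ubiquitin and trafficking list (4 positive). The lists go by symbol and leave out some genes of these kinds.

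Where a gene had 2 CpG-poor regions near its start, the pair had the same sign in 4 of 8 genes. Adra2c, an adrenergic receptor gene (27.1 and 21.9 points), Slc6a4, Ssu2 (25.3 and 21.7) and Pax8 (-33.1 and -20.3) were alike. Mmp17, a matrix metalloproteinase gene, had 29.7 points 5055 bp upstream and -25.1 points 6586 bp downstream. Trp53i11 had -22.2 points at 3921 bp and 25.6 points at 9074 bp, both within the gene. Wfdc1 had -20.1 points at 122 bp and 20.7 points at 9009 bp, and 1700025C18Rik had 20.1 points 9625 bp upstream and -20.6 points 1182 bp downstream. A sign at a nearby region therefore did not stand for the gene as a whole in these 4 genes. Of all 304 regions 64.8% were positive, so regions without any link would also often share a sign. The count of 4 in 8 was not tested against that.

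Both like and unlike signs also occurred against regions outside the definition. The tumor list had other regions, farther away or CpG-dense, for 36 of the genes, forming 45 pairs, of which 27 had the same sign and 18 opposite signs. In 10 of the pairs the other region was CpG-dense. Kcng1 (-20.1 points 4629 bp upstream) had -20.8 points over 35 sites at 182 bp, and Ush1g (-22.7) had -23.9 points over 49 sites, so these pairs went the same way. Zfp263 (-20.6 points at 5616 bp) had 24.8 points over 77 sites, 50 of them DMCs, at its start. Lhcgr, a gonadotropin receptor gene, had 24.6 points 8447 bp upstream and -23.0 points over 12 sites at 21 bp. Scn10a (34.9) had -21.2 points over 15 sites 46387 bp upstream.

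The lists of the other tissues met few of these regions, as they met few tumor regions of any kind. Against 197 positive of 304 regions in tumors, the same limits on sites and distance left 36 regions in the normal liver list, 10 positive (27.8%), and 12 in the non-tumor list, 8 positive (66.7%). The positive shares over all 107 regions of the normal list and all 57 of the non-tumor list are not given here. These 2 shares can therefore not be read as particular to CpG-poor regions near starts. The normal list set AAN against normal liver of the control line (CCN), which is not among the samples of this series. In that list too, an effect of the sample source and an effect of the line cannot be told apart. Both groups of the non-tumor list, AATn and CCTn, belong to this series. Regions of the normal list overlapped 2 of the 304 tumor regions, by at least 1 base, which is 0.658%, against 11 of all 1547 tumor regions (0.711%). Regions of the non-tumor list overlapped 0 of the 304, against 4 of all 1547 (0.259%). At Htr2a, which shared 179 bases, the difference was -35.1 points in tumors (4 DMCs of 4 sites) and -22.4 points in normal liver (3 DMCs of 6 sites). At Pcsk2os2, an antisense gene of Pcsk2, which shared 171 bases, it was 21.95 points in tumors and -21.1 points in normal liver. Irx6 was listed in non-tumor tissue with 27.6 points at 7125 bp and in tumors with 20.3 points at 3747 bp, with no shared base. The lists hold only differences of at least 20 points, so absence from a list says nothing of smaller ones. Whether the 3 lists use the same sign convention is not stated in any source used here.

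The regions just inside and just outside the definition were alike in size. The regions with 9 sites were those of Cd8a (22.1), Oas1h (20.5), Tmem150cos (-20.1) and 4930594C11Rik (-22.5). Of the 9 regions within 10 kb that had 10 sites, 4 were positive and 5 negative, from 22.3 points at Srp9 to -31.8 points at Cmtm8. By distance, the farthest regions inside were Slain1os (24.0 points, 9983 bp), 1700023L04Rik (26.3, 9793 bp) and Gm7173 (22.8, 9722 bp), and the nearest outside were Snord93 (24.0, 10066 bp), Cdh5 (-21.6, 10075 bp) and Spic (20.1, 10082 bp).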

How the data were processed

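The deposited values were the authors' lists of differentially methylated regions, with 1 difference in percentage points (percent methylation) per region and comparison of 3 samples with 3. Each list also gives the region's number of CpG sites, number of DMCs and distance to the nearest TSS. Per the submitters' processing notes, the authors worked on mm10 with bedtools 2.25.0, methylKit, Bismark and Trim Galore, with no roles stated. The coverage minimum, threshold, depth and region caller were not given in the sources used here. In all 3 lists every difference was at least 20 points over at least 3 sites with at least 1 DMC.

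Listed starts proved to be counted from 0. Of 21 listed starts inside a RefSeq promoter window, 4 lay on a CpG as listed and 21 did so 1 base further, so 1 was added. Listed distances matched those recomputed from the listed positions to within 1 bp in 1547 of 1547 regions. Genes were matched to RefSeq (GRCm38.p6) by accession for 299 of the 304 regions, by symbol for 2 and by synonym for 1, and 2 had no match. Promoter windows gave the sequences of 9 regions.

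Shares of positive differences were compared by two-sided Fisher's exact tests (SciPy 1.17.1 on Python 3.11.15), adjusted by Benjamini-Hochberg over 5 comparisons with a threshold of 0.05, after a check on simulated data. Exact Clopper-Pearson 95% intervals cover the counting of regions only. Within each position class the 10 largest differences of each sign were named, with all regions within 1 kb and up to 6 regions per gene list and sign. The regions and the 12 gene lists were chosen with earlier results of these data known. In all, 8 alternatives were tried. A few items withheld for evaluation are not reported here.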

Additional observations from a re-analysis of the deposited data

Results flagged for a closer look

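Pcsk2os2 was singled out because the same stretch was listed with opposite signs in different tissues. Its difference between the arsenite and control lines was 21.9527 points in tumors (1 DMC of 4 sites) and -21.0964 points in normal liver (1 DMC of 3 sites), over 171 shared bases. The contrast between tissues was not tested, because the lists hold no values per sample, and whether the lists use the same sign convention is not stated in any source used here. The control groups of both lists, CCTt and CCN, are not among the samples of this series. An effect of the sample source and an effect of the line therefore cannot be told apart in either list.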

How the results depend on the processing

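Each share was recomputed under 8 alternatives, which changed the site limit to 8 or 12, the distance limit to 5 kb, the tolerance for spanning a start to 500 bp, and the minimum difference to 25 points or the number of DMCs to 2, left out the sex chromosomes, or kept 1 region per gene. The positive share of the CpG-poor regions ranged from 62.2% to 65.5%. The gap between CpG-poor and CpG-dense regions kept its direction throughout and passed the test under all alternatives but the minimum of 25 points, where it was 19.1 percentage points (Fisher's exact test, adjusted p = 0.519). With fewer regions compared, 97 against 24, the test also has less reach. The 500 bp tolerance does not enter the comparison of CpG-poor with CpG-dense regions, so its pass is the main result repeated. The gap between spanning and downstream regions reversed when regions within 500 bp of a start counted as spanning, to 10.3 points (69.2% of 26 against 58.9% of 151, Fisher's exact test, adjusted p = 0.486), and it passed no test under any alternative. The gap between upstream and downstream regions stayed between 4.24 and 16.4 points and did not pass in any. No paired analysis was possible because the lists hold no values per sample, and for the same reason no replicate could be left out in turn. Depth is unknown.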

Other observations

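Chromosomes 15 and 17 held more negative than positive CpG-poor regions near starts, with 7 positive and 9 negative on chromosome 15 and 6 positive and 9 negative on chromosome 17, as did chromosome 19 with 1 positive and 3 negative. On the X chromosome 8 of 11 regions were positive. Each other chromosome had more positive than negative regions. These counts were not tested. The positive share over all tumor regions of each chromosome is not given here, so the counts cannot be read as particular to CpG-poor regions near starts.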
